A study of Homo sapiens with 5 samples.

Results

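The regions described here are the windows of 5 genes that act on RAS and MAP kinase signalling, DUSP4, KSR2, RASA4, RASA4B and MAPK10, in a map of G-quadruplexes in prostate cancer cells. They are 5 windows of the study's list of G4-associated genes, which holds 1289 gene names, some with several windows. Each window reaches 2000 bp to either side of a centre. The members were chosen by name from this list, with their values in these data known. The windows of the list were themselves selected on BG4 peaks in these same samples. The presence and height of a peak in the members is therefore described and was not tested. C4-2, an established line of human prostate cancer cells, can grow without androgen, and its 4 replicates were cross-linked, sheared by sonication and immunoprecipitated with BG4, an antibody that binds folded G4 structures. There was 1 condition, with no treatment and no second genotype, and an input library was not analysed here. The study's methods call the 4 replicates biological, but neither they nor the labels say whether the replicates came from separate cultures.

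A G-quadruplex (G4) is a four-stranded fold of DNA or RNA built from stacked planes of guanines, and it can form where several runs of guanines lie close together on 1 strand. RAS proteins are small GTPases that pass growth signals from receptors to a relay of kinases, RAF, MEK and ERK. RAS GTPase-activating proteins switch RAS off, scaffold proteins hold the kinases of the relay together, and dual-specificity phosphatases remove the phosphates that activate MAP kinases. A parallel branch, the JNK kinases, responds mainly to stress.

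Each replicate has a peak list with positions and summits. A pair of values per peak, written by the authors' peak caller, is used below. Fold enrichment is the ratio of the signal at the summit to its local background, and the −log10 q rises as a peak becomes less likely to be noise. The 4 lists held between 4427 peaks (replicate 4) and 8036 peaks (replicate 1), with a median fold enrichment between 6.79 and 7.53. No read counts are given, and the depth of the libraries is therefore unknown. All peak and window positions are on GRCh37 (hg19), as the submitters' processing notes say. The methods name hg38, in which chromosome 1 has only 248956422 bp, while 1 peak in the lists ends at 249201060. Gene coordinates and sequences below are on GRCh38 and were not laid under the peaks.

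Promoter sequence is shown for the 2 genes with a RefSeq entry at the start site of interest, KSR2 and PTPN13, because the peaks below lay just upstream of the window centres. PTPN13 starts head to head with a MAPK10 start, and both windows held the same peaks. Each sequence is the 250 bases before the start of the gene (RefSeq, GRCh38.p14), read 5′ to 3′ on the strand of the gene. Capitals mark runs of at least 3 G or 3 C, where a run of C is a run of G on the other strand. KSR2 is at chr12:117968991-117969240 on the minus strand and PTPN13 at chr4:86594065-86594314 on the plus strand.
KSR2: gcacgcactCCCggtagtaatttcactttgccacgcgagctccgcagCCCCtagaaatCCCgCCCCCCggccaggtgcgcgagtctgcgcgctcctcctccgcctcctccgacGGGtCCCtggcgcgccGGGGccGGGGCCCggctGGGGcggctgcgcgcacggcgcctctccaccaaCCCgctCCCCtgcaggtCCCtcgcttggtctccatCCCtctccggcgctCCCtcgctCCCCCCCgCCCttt
PTPN13: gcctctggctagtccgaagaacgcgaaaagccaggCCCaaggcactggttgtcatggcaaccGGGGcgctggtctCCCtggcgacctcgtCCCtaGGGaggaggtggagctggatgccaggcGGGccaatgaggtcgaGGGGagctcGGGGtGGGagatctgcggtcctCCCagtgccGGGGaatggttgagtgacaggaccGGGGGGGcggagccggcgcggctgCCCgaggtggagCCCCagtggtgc
In these 250 bases KSR2 had a GC content of 74%, with 4 runs of G and 13 runs of C, and PTPN13 had a GC content of 69.2%, with 8 runs of G and 6 runs of C. The KSR2 promoter carried most of its G runs on the strand opposite to the gene, whereas PTPN13 carried them on both strands. A G4 motif was searched as 4 runs of GGG or longer with loops of 1 to 7 bases of any kind, on both strands and with no other motif. KSR2 held 1 match, 19 bases long, on the strand opposite to the gene, from 22 to 4 bases before the start. This match covers only 3 of the marked runs. The search counted the run of 7 C as 2 runs with a loop of 1 base between them. PTPN13 held no match, which says only that these letters are not in this window. Of the 35116 promoters of 300 bases in the table, 25% held a match, and the median GC content was 58.7%. Over the same 300 bases, which add 50 after the start, the GC content was 71.3% for KSR2 and 68.7% for PTPN13. Of the 5 members, 2 were in the table, KSR2 and MAPK10. MAPK10 had 3 entries, all at starts at least 223 kb from that of PTPN13, and none held the motif. DUSP4, RASA4 and RASA4B had no entry.

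The 5 windows held 19 peaks, which is 1 peak in every replicate for DUSP4, KSR2, RASA4 and RASA4B, and 1 peak in each of replicates 1, 2 and 3 for MAPK10. A peak in all 4 replicates was found in 12.8% of all windows (167 windows), and in 4 of these 5. A peak in at least 2 replicates was found in 49% of all windows (638 windows), and 665 windows had a peak in 1 replicate. Some windows hold the same peaks as others, so these shares and the ranks below count windows and not separate regions. No member window held more than 1 peak of a replicate. Fold enrichment ran from 5.92 to 19.4 over the 19 peaks, and 14 of them were above the median of their own list.

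**Figure D1:**
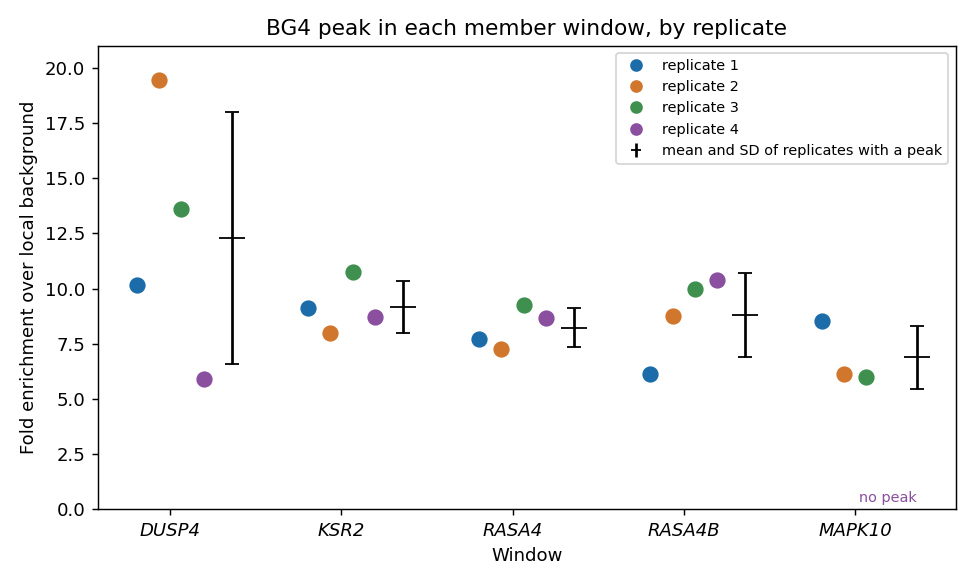
Fold enrichment of the peak in each of the 5 windows (vertical axis, ratio over the local background), with 1 point per replicate and the mean and SD of the replicates with a peak in black. DUSP4 spreads from 5.92 to 19.4, while the replicates of RASA4 sit between 7.28 and 9.24, and MAPK10 has no peak in replicate 4.

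The RAS GTPase-activating proteins come first, since they act on RAS itself. RASA4 (also called CAPRI) is a GTPase-activating protein that responds to calcium, and RASA4B is a near-identical copy of it on the same chromosome. In GENCODE v44 (GRCh38), RASA4 (ENSG00000105808.19) lies on chromosome 7 from 102579646 to 102616756 and RASA4B (ENSG00000170667.16) from 102479976 to 102517777, both on the minus strand. Their start sites are 98979 bp apart on GRCh38, and the window centres are 98976 bp apart on GRCh37. The first 500 bases of the canonical transcripts differ by 3 edits, an identity of 99.4%. The whole transcripts of 5604 and 6095 bases are 91.2% identical, with 537 edits over an alignment of 6112 positions. Those edits include the difference in length, so the value is not a rate of base changes. These are transcript bases, and the sequence under the peaks was not compared. Where the copies are alike, reads from one can be placed on the other, so how the signal divides between both windows is uncertain.

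The RASA4 window (chr7:102255204-102259204) held 1 peak per replicate. In replicate 1 the peak lay at 102257170 to 102257469, with a fold enrichment of 7.71, a −log10 q of 9.64 and rank 3770 of 8036 by fold enrichment. In replicate 2 it lay at 102257179 to 102257484, with 7.28, a −log10 q of 7.84 and rank 3153 of 6192. These 2 values were close to the medians of their lists. In replicate 3 it lay at 102257135 to 102257539, with 9.24, a −log10 q of 12.4 and rank 2085 of 6805. In replicate 4 it lay at 102257177 to 102257633, with 8.68, a −log10 q of 10.2 and rank 1246 of 4427. The mean fold enrichment was 8.23 ± 0.896 (SD, n = 4), and the highest value was 1.27 times the lowest. RASA4 varied less than most windows with a peak in all 4 replicates, with a coefficient of variation of 10.9% beside their median of 17.9%. The peaks were 300, 306, 405 and 457 bp wide in replicates 1 to 4.

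The RASA4B window (chr7:102156228-102160228) also held 1 peak per replicate. In replicate 1 the peak lay at 102158181 to 102158554, with a fold enrichment of 6.12, a −log10 q of 6.50 and rank 5788 of 8036. This was the lowest of the RASA4B peaks and lay below the median of its list. In replicate 2 it lay at 102158126 to 102158515, with 8.75, a −log10 q of 11.5 and rank 2078 of 6192. In replicate 3 it lay at 102158143 to 102158591, with 9.97, a −log10 q of 14.8 and rank 1744 of 6805. In replicate 4 it lay at 102158141 to 102158558, with 10.4, a −log10 q of 14.3 and rank 721 of 4427. Replicate 4 was thus the highest for RASA4B, although it was the highest in only 11 of the 167 windows with a peak in all 4 replicates and the lowest in 91 of them. The mean was 8.80 ± 1.92 (SD, n = 4), and the widths were 374, 390, 449 and 418 bp.

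RASA4B and RASA4 are set side by side because of their shared sequence. RASA4B minus RASA4 in fold enrichment was -1.60, 1.47, 0.72 and 1.69 in replicates 1 to 4. RASA4B was the higher in 3 of 4 replicates, and the mean difference of 0.57 ± 1.505 (SD, n = 4) was smaller than its own spread. The peaks also sat at like places relative to the window centres. The bases shared by all 4 peaks ran from 265 bp upstream to 25 bp downstream of the centre for RASA4 and from 287 bp upstream to 47 bp downstream for RASA4B. The summits lay 148, 120, 145 and 186 bp upstream for RASA4 and 131, 134, 162 and 142 bp upstream for RASA4B.

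The surroundings of the 2 copies held further peaks. Between them, 1 region on chromosome 7 (102212926 to 102213419 in replicate 1) had a peak in all 4 replicates, with summits 44.1 to 44.2 kb from the RASA4 centre and fold enrichments of 8.44, 8.06, 7.86 and 7.70. It is in no window of the list, and its height was similar to that of the RASA4 peaks. Its −log10 q was 18.3, 12.6, 13.7 and 10.5, above that of the RASA4 peak in each of the 4 replicates. On the other side of RASA4B, a region 38.7 to 38.9 kb from its centre had a peak in replicates 1, 2 and 4, with fold enrichments of 5.24, 7.85 and 5.92, and it is also in no window. The window of RP11-514P8.8, a gene known by a clone name (chr7:102182211-102186211), is the only other window within 50 kb of RASA4B, and it held a peak of replicate 4 alone with a fold enrichment of 4.28. Just beyond 50 kb, a region 52.8 to 52.9 kb from the RASA4B centre had a peak in all 4 replicates, with 11.9, 9.82, 9.67 and 8.76. It was higher than the RASA4B peak in replicates 1 and 2 and lower in replicates 3 and 4. Within 50 kb, RASA4 had 1 region with another peak and RASA4B had 2, while over all windows the median was 0 and the upper quartile 1.

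**Figure D2:**
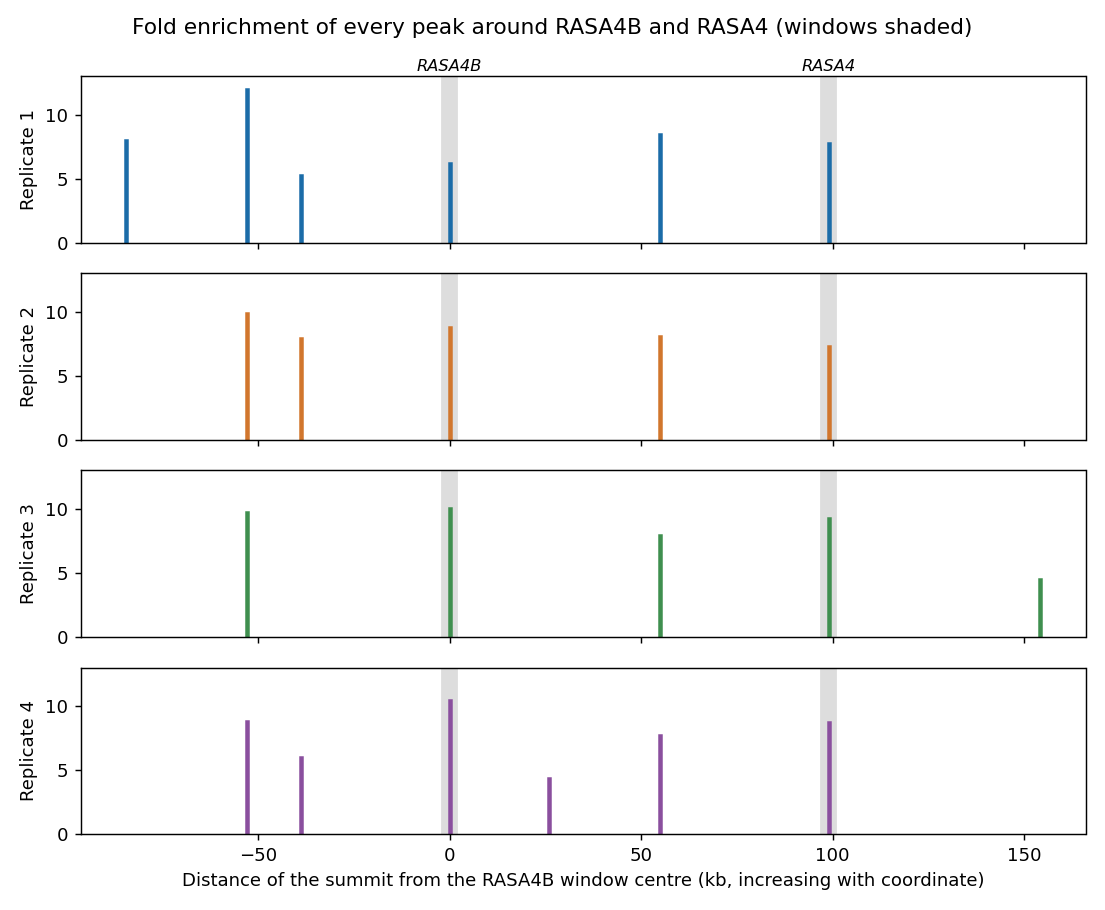
Fold enrichment (vertical axis) of every peak in and around the RASA4B and RASA4 windows (shaded) against the distance of its summit from the RASA4B window centre in kb, with 1 panel per replicate. Besides the windows, the regions 52.8 to 52.9 kb below and 54.8 to 54.9 kb above the RASA4B centre carry a peak in every replicate.

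KSR2 is a scaffold that brings RAF, MEK and ERK together and so works inside the relay. The gene (ENSG00000171435.15) lies on chromosome 12 from 117453012 to 117968990 on GRCh38, on the minus strand. Its window (chr12:118404788-118408788) held 1 peak per replicate. In replicate 1 the peak lay at 118406707 to 118407308, with a fold enrichment of 9.14, a −log10 q of 12.3 and rank 2582 of 8036. In replicate 2 it lay at 118406773 to 118407331, with 7.98, a −log10 q of 8.97 and rank 2592 of 6192. Replicate 2 was the lowest of the 4. In replicate 3 it lay at 118406708 to 118407302, with 10.8, a −log10 q of 15.2 and rank 1372 of 6805. In replicate 4 it lay at 118406464 to 118407352, with 8.73, a −log10 q of 10.04 and rank 1218 of 4427. All 4 values were above the median of their list, which holds for no other member. The mean was 9.16 ± 1.18 (SD, n = 4), and the coefficient of variation was 12.9%.

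The KSR2 peaks were broad and shared a long stretch. They were 602, 559, 595 and 889 bp wide, a mean of 661 ± 153 bp (SD, n = 4) beside a median of 448 bp over the windows with a peak in all 4 replicates. The 4 peaks shared 530 bp, from 514 bp upstream to 15 bp downstream of the centre, which ranked 7 of 167 by the length shared. The summits lay 212, 257, 206 and 285 bp upstream of the centre, farther out than those of any other member. The printed KSR2 promoter covers the 250 bases before the start on GRCh38. Whether the window centre is that same base on GRCh37 was not tested, so no summit was placed on the sequence or on its motif match. No other window shares bases with that of KSR2. The only other peak within 50 kb was in replicate 1, with its summit 47.7 kb away and a fold enrichment of 6.25, and in replicates 2 to 4 the nearest other summit was 404 to 778 kb away.

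MAPK10 encodes JNK3, a kinase of the stress-activated branch that is best known in neurons. The gene (ENSG00000109339.24) lies on chromosome 4 from 85990007 to 86594625 on GRCh38, on the minus strand, with 192 transcripts and 125 start sites in GENCODE v44. Its window (chr4:87513284-87517284) shares 3816 bp with that of PTPN13, a protein tyrosine phosphatase gene on the plus strand (ENSG00000163629.13). The 2 window centres are 184 bp apart, and a MAPK10 start is 184 bp from the start of PTPN13 on GRCh38. The canonical MAPK10 transcript starts elsewhere, at 86360053.

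MAPK10 had the lowest mean of the 5 members, and replicate 4 had no peak there. In replicate 1 the peak lay at 87515208 to 87515814, with a fold enrichment of 8.51, a −log10 q of 10.2 and rank 3062 of 8036. In replicate 2 it lay at 87515304 to 87515648, with 6.14, a −log10 q of 5.37 and rank 4275 of 6192. In replicate 3 it lay at 87515267 to 87515607, with 5.98, a −log10 q of 5.18 and rank 5101 of 6805. Only the peak of replicate 1 was above the median of its list. The mean was 6.88 ± 1.42 (SD, n = 3) over the replicates with a peak, and 5.16 ± 3.63 (SD, n = 4) with replicate 4 at 0, which ranked 265 among all windows. Peaks in replicates 1, 2 and 3 but not 4 were found in 105 windows, and replicate 4 has the shortest list. A weaker signal and a shallower library cannot be told apart there without read counts. The widths were 607, 345 and 341 bp.

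The same 3 peaks lie in the PTPN13 window. Their summits were 61, 197 and 134 bp upstream of the MAPK10 centre. Measured from the PTPN13 centre on the strand of that gene, they were 123 bp upstream, 13 bp downstream and 50 bp upstream. On GRCh38 the annotated MAPK10 gene reaches 86594625, past both its start near PTPN13 and the start of PTPN13. A summit upstream of the MAPK10 centre is therefore not necessarily outside the gene. Which start of either gene the peaks belong to cannot be told apart. The locus was otherwise empty, with no other peak of any replicate within 50 kb and the nearest summit 341 kb away in all 4 replicates. At that distant place replicate 4 did have a peak, with a fold enrichment of 9.28.

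DUSP4 (also called MKP-2) is a nuclear phosphatase that inactivates MAP kinases, and its expression is itself raised by ERK signalling. The gene (ENSG00000120875.9) lies on chromosome 8 from 29333064 to 29350684 on GRCh38, on the minus strand. Its window (chr8:29206185-29210185) held the highest single peak of the 5 members and the widest spread. In replicate 1 the peak lay at 29208070 to 29208774, with a fold enrichment of 10.2, a −log10 q of 13.3 and rank 2079 of 8036. In replicate 2 it lay at 29207998 to 29208671, with 19.4, a −log10 q of 34.4 and rank 171 of 6192. Replicate 2 thus placed DUSP4 above 97.2% of its list. In replicate 3 it lay at 29207981 to 29208540, with 13.6, a −log10 q of 20.7 and rank 731 of 6805. In replicate 4 it lay at 29208178 to 29208555, with 5.92, a −log10 q of 5.31 and rank 3018 of 4427. That last value was below the median of its list.

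The mean fold enrichment at DUSP4 was 12.3 ± 5.72 (SD, n = 4), which ranked 22 of the 167 windows with a peak in all 4 replicates. The highest replicate was 3.28 times the lowest, beside a median of 1.49 over those windows. The coefficient of variation of 46.5% ranked 5 of 167, counted from the most variable. The mean of DUSP4 was above that of every other member, but its values overlapped theirs, since replicate 4 fell below all the KSR2, RASA4 and RASA4B peaks. The widths fell in another order than the heights, with 705, 674, 560 and 378 bp in replicates 1 to 4.

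**Figure D3:**
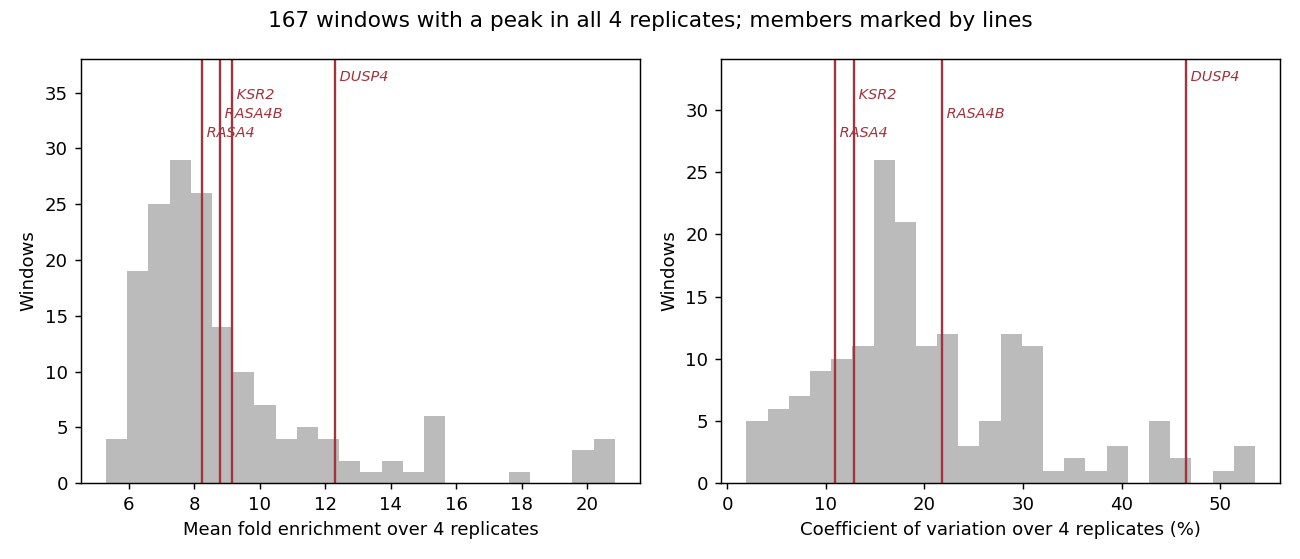
Histograms of the mean fold enrichment (left) and of the coefficient of variation in percent (right) over the 167 windows with a peak in all 4 replicates, with the number of windows on the vertical axis and the members as lines. DUSP4 stands at 12.3 and 46.5%, and KSR2, RASA4 and RASA4B lie between 8.23 and 9.16 in the mean.

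The DUSP4 window shares 1498 bp with that of RP4-676L2.1, another gene known by a clone name (chr8:29208687-29212687). The peak of replicate 1 reached 88 bp into that window, and those of replicates 2 to 4 ended before it. No other peak lay within 50 kb of the DUSP4 window. The nearest summit was 87.4 to 87.6 kb away in replicates 1 to 3 and 728 kb away in replicate 4. DUSP4 and MAPK10 thus had no neighbour within 50 kb, which was the case for 58.1% of all windows (757 windows).

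The position of the peaks was common to all members, although their heights were not. All 19 summits lay upstream of the window centre on the strand of the gene, from 61 to 285 bp away, and 18 of the 19 peaks covered the centre. The exception was MAPK10 in replicate 2. Mean summit distances were 120 ± 52.5 bp for DUSP4, 240 ± 37.7 bp for KSR2, 150 ± 27.2 bp for RASA4 and 142 ± 13.96 bp for RASA4B (SD, n = 4), and 131 ± 68.1 bp for MAPK10 (SD, n = 3). For DUSP4 the summits lay 121, 108, 62 and 189 bp upstream in replicates 1 to 4. Among the windows with a peak in all 4 replicates, 43.7% had all 4 summits upstream of the centre (73 of 167), and 4 of 4 members did. These 4 include the near-identical copies RASA4 and RASA4B, so they are not 4 separate cases. Nor are the 167 windows all separate regions, since some of them hold the same peaks as others. The median distance of the mean summit from the centre was 234 bp over those windows. RASA4B had the closest summits, within 31 bp of each other, where the median range was 98 bp, and DUSP4 had the widest range of these 4 members with 127 bp.

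**Figure D4:**
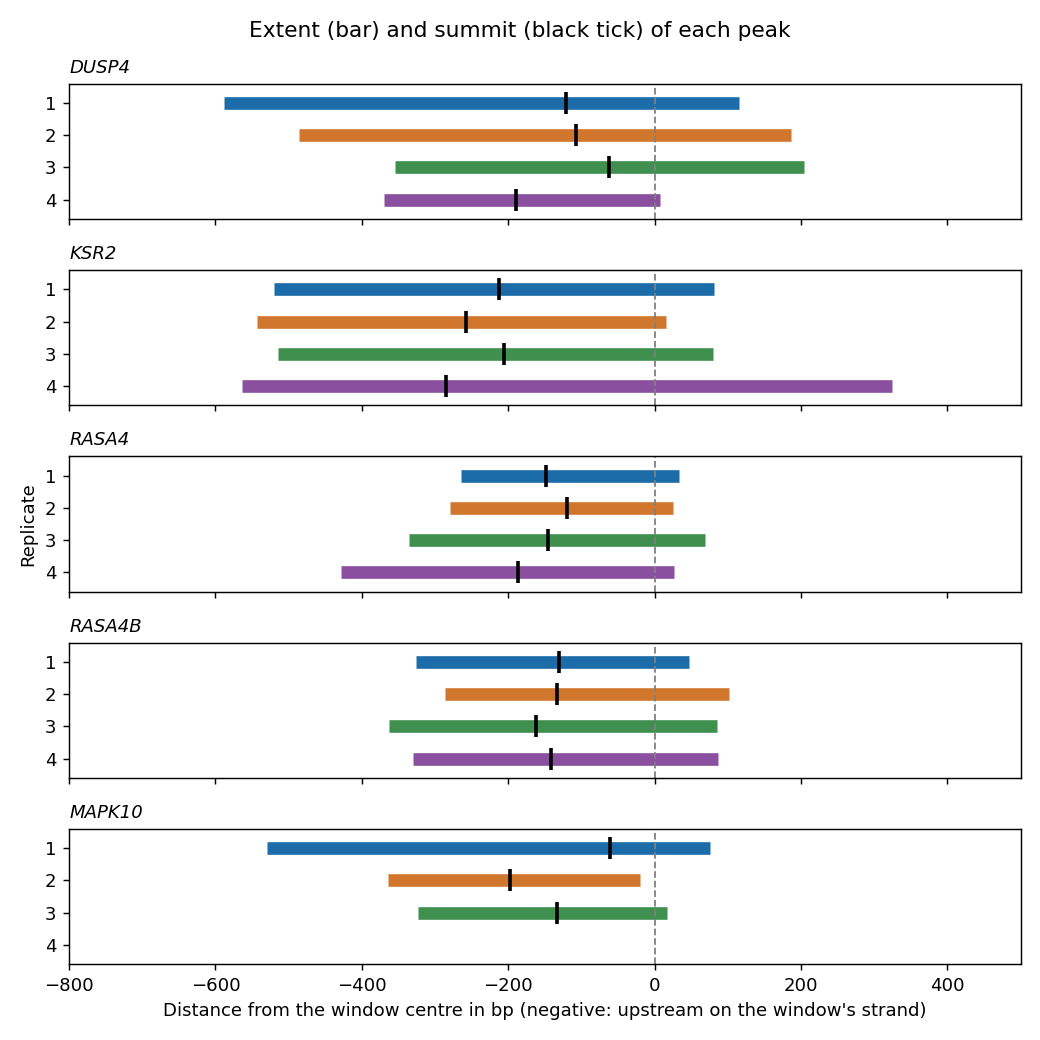
Extent (bars) and summit (black ticks) of each of the 19 peaks, by replicate, against the distance from the window centre in bp (negative values are upstream on the strand of the window). Every summit lies left of the centre line, and the replicates of RASA4B are the most closely aligned.

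The list of windows also held other genes of the pathway. A textbook list of 227 RAS and MAP kinase genes held the 5 members and 222 others, and 11 of these 222 had a window, a share that was not set against that of all genes. A gene without a window is not a gene without a peak, because the study removed G4 regions that it also found in HepG2 and K562 cells. By role, 3 of 11 RAS GTPase-activating proteins had a window (RASA4, its near-identical copy RASA4B, and RASA3). So did 1 of 13 MAP kinase phosphatases (DUSP4), 1 of 15 scaffolds (KSR2) and 1 of 14 MAP kinases (MAPK10). These are the roles of the members, which were picked from genes with a window. In the other roles, 2 of 35 ligands, 2 of 22 RAS exchange factors and 1 of 31 RAS-family GTPases had one. The same held for 1 of 25 MAP kinase kinase kinases, 1 of 7 MAP kinase kinases and 1 of 14 substrate kinases or stress regulators. It also held for 1 of 20 RAS effectors or regulators and 1 of 20 receptors or adaptors. No share by role was tested. None of the 11 other windows had a peak in all 4 replicates, and 3 had one in 2 replicates. The median number of replicates with a peak was 1 for the 11 windows, 1 for all windows and 4 for the members. The median of the mean fold enrichment, with 0 where a replicate had no peak, was 1.37 for the 11 windows, 2.27 for all windows and 8.80 for the members. The members were picked with their values in these data known, so their distance from the other windows is no result about the pathway.

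The 3 windows with a peak in 2 replicates belong to the upper part of the pathway and to a kinase of it. PDGFA, a growth factor, had a fold enrichment of 6.81 in replicate 1 and 7.22 in replicate 3, at summits at least 1149 bp downstream of its centre. EGFR, the receptor of epidermal growth factor, had 7.43 in replicate 1 and 5.98 in replicate 3. MAP2K5, the kinase that activates ERK5, had 5.52 in replicate 2 and 5.34 in replicate 3. All 3 were thus absent from replicate 4, the shortest list. Over all windows, 291 had a peak in 2 replicates. Those without replicate 4 were 74 with replicates 1 and 2, 106 with 1 and 3, and 47 with 2 and 3. A peak in 1 replicate was found in 665 of all windows, and in 267 of them it was replicate 1. Of the remaining 8 windows here, 6 held a peak of replicate 1 alone. These were RASD2, a RAS-family GTPase (6.25), FGF9, a growth factor (6.17), RASGEF1C (5.47) and KNDC1 (4.84), both with RAS exchange factor domains, RASA3, a RAS GTPase-activating protein (4.37), and GADD45G, a stress regulator of MAP kinase signalling (3.65). MLTK, a stress-activated kinase upstream of JNK, had a peak of replicate 3 alone (5.24), and PEA15, an ERK-binding protein, had a peak of replicate 4 alone (4.31). RASA3, the third GTPase-activating protein with a window, was below both RASA4 and RASA4B in the replicate where it had a peak.

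**Figure D5:**
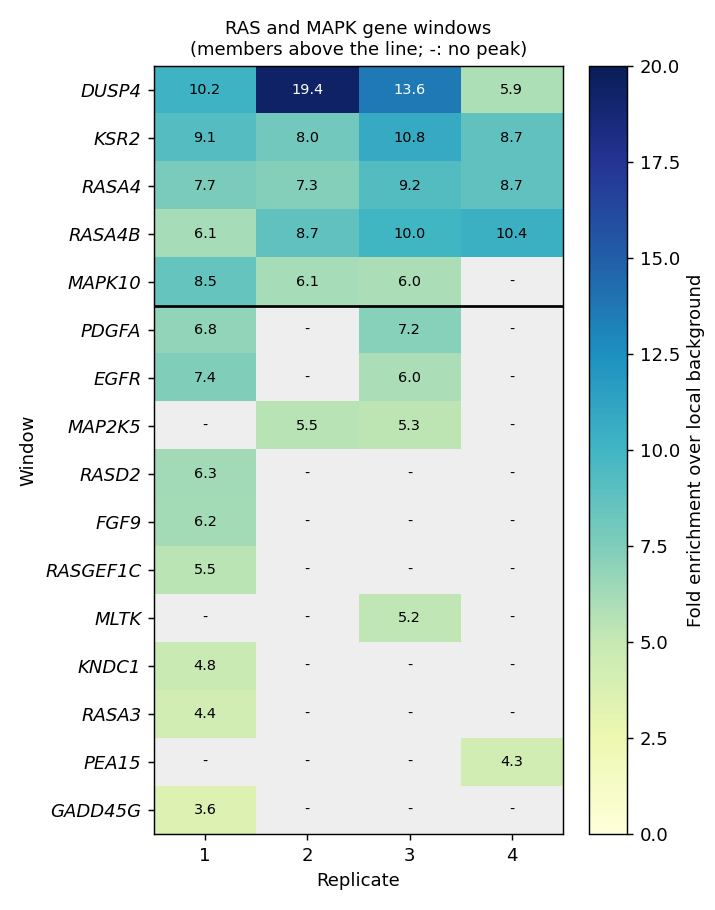
Fold enrichment per replicate (columns) in the 16 windows of RAS and MAP kinase genes (rows), with the 5 members above the line and a dash where a replicate had no peak. The members are filled in 19 of 20 cells, and the 11 other windows have a peak in 1 or 2 replicates.

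The window most like a member was the one whose fold enrichment over the 4 replicates differed least in its largest difference. For KSR2 this was RASA4, with a largest difference of 1.53. For RASA4 it was RP5-857K21.5 on chromosome 1 (7.52, 8.25, 8.38 and 7.82), with 0.97. MAPK10 was most like RECK, a membrane-anchored inhibitor of matrix proteases (8.61, 6.60, 5.98 and no peak), with 0.46. DUSP4 was most like OSBPL1A, an oxysterol-binding protein gene (9.29, 17.0, 10.3 and 9.79), with 3.87, the largest such difference of these 4 members. Both DUSP4 and OSBPL1A were highest in replicate 2, as were 47 of the 167 windows with a peak in all 4 replicates.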

How the data were processed

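BG4 ChIP-seq was performed on 4 replicates of C4-2 cells. The submitters' processing notes name bcl2fastq 1.8.4, Bowtie2 2.2.5, SAMtools 1.11 and MACS2 2.1.1 with hg19. Peaks were called per replicate, and the peak calling options are not given in the sources used here. The deposited fold enrichment is a ratio that the authors computed at each summit against its local background. Deposited p-values and q-values are on a −log10 scale, also from the authors' peak caller. The deposited score, the whole part of 10 times the −log10 q apart from 1 peak, was not used. Widths count both end bases.

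Windows reach 2000 bp to either side of a centre and were read from the study's list. A peak counted as in a window when they shared at least 1 bp, and the highest peak of a replicate gave its value. Nearby peaks lay outside the window and within 50 kb of its edges. All values are descriptions: the series has 1 condition, the windows were chosen for their peaks, and depth is unknown, so no interval was computed.

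The genes named are the 5 members, every gene whose window overlaps a member window or lies within 50 kb of it, every gene of the RAS and MAP kinase list with a window, and for each member the most similar window that shares no peak with it. That of RASA4B is not reported here. The members and lists were chosen with earlier results of these data known.

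Alternatives were the summit or 50% of a peak inside the window, a minimum −log10 q of 4, the top 3000 peaks of each list by −log10 q, the central 2000 bp, the mean over peaks, the midpoint in place of the summit, distances of 20 and 100 kb, and leaving out single replicates. The counting was tested on 500 simulated windows, and 3 of 3 quantities were recovered. Python 3.11.15, pandas 2.3.3, numpy 2.4.6, matplotlib 3.10.9 and edlib 1.3.9 (transcript alignment) were used.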

Additional observations from a re-analysis of the deposited data

Results flagged for a closer look

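The KSR2 peak of replicate 4 was 889 bp wide, and the next widest KSR2 peak was 602 bp, in replicate 1. The gap was 0.87 of the whole range of the 4 widths, above the critical value of Dixon's test for 4 samples. It was 1 of 16 quantities looked at (fold enrichment, −log10 q, width and summit position of the 4 members with a peak in every replicate), and about 1 in 20 groups passes the limit by chance. Its fold enrichment of 8.73 and its summit 285 bp upstream of the centre did not stand apart by the same limit.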

How the results depend on the processing

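Of 173 values recomputed under an alternative, 156 stayed within the tolerance and 17 moved beyond it, and none changed direction. The tolerance was 1 SD over the replicates for a mean and 1.5 times for a count, which is wide for a quantity with a large spread. Leaving out 1 replicate could not move a mean by 1 SD of those same values. Nor could it take a member's number of replicates with a peak beyond 1.5 times. The mean over peaks could not differ, since no member window held more than 1 peak of a replicate. For these values, staying within the tolerance was fixed in advance and says nothing about robustness. With the summit inside the window, 50% of the peak inside it, a −log10 q of at least 4 or the central 2000 bp, no number of replicates or mean fold enrichment of a member moved. That too was fixed by the peaks described above. Every member peak lay wholly inside the central 2000 bp, and the lowest −log10 q was 5.18, so these settings say nothing about robustness either. With the 3000 strongest peaks per replicate, 2 windows in place of 4 had a peak in every replicate. RASA4 then had 2 replicates and a mean of 4.48, and MAPK10 had 0 replicates and a mean of 0, because 3000 peaks take less than 50% of the lists of replicates 1, 2 and 3, and the peaks lost there rank beyond it. The midpoint put the RASA4B peak 123 bp upstream in place of 142 bp. Within 20 kb, KSR2, RASA4 and RASA4B each had 0 nearby regions, and within 100 kb DUSP4 had 1, RASA4 4 and RASA4B 6. At a −log10 q of at least 4, RASA4B had 1 nearby region. With each replicate left out in turn, nearby regions ranged from 0 to 1 for KSR2 (0 without replicate 1) and from 1 to 2 for RASA4B (1 without replicate 4), and the other list windows with a peak in at least 2 replicates from 0 to 3 (1 without replicate 1 and 0 without replicate 3). Windows with a peak in every remaining replicate ranged from 4 to 5. The mean of DUSP4 ranged from 9.90 to 14.4, and RASA4B minus RASA4 from 0.20 (without replicate 4) to 1.29 (without replicate 1) against 0.57 over all 4, an alternative chosen after seeing the data. No paired analysis was possible because there is no second group to pair the replicates with. The comparison of RASA4B with RASA4 was made within each replicate. Depth limits every absence of a peak, since the lists hold no counts.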
